A study of Mus musculus with 61 samples.

Results

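Contacts of the IgG3 viewpoint in the mouse immunoglobulin heavy chain locus were compared between resting primary B cells and the same kind of cells after 3 days of activation. The comparison takes in all libraries captured with the IgG3 probe whose titles name LPS at day 0 or day 3. There are 6 of these among the 61 libraries of the series, 3 at each time. The rule that chose them uses titles alone and no measured value, although earlier results of these data were known. The whole matrix of 1 kb bins was used, with 27495 pairs of bins.

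Class switch recombination replaces the constant region of an antibody by joining the switch region of Ighm to that of a constant region gene further along, such as Ighg3, Ighg1 or Ighg2b. Each switch region is transcribed before it recombines, and in mouse B cells LPS alone induces this transcription mainly at Ighg3 and Ighg2b, while LPS with IL4 induces it at Ighg1 and Ighe. Transcription and recombination depend on an enhancer cluster beyond the last constant gene, of which hs4 is an element, and another enhancer, Emu, lies beside Ighm at the other end.

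Tri-C, a chromosome conformation method, captures ligated fragments that hold a chosen viewpoint and counts reads in which the viewpoint is joined to 2 further fragments. Each value is thus a 3-way contact of IgG3 with a pair of bins. All 6 libraries have the same genotype in the title, so that the cells at both times share it, and all 6 are marked clone 1, a term not explained for primary cells. The day 0 libraries have the treatment label WT and the day 3 libraries the label for 72 h of activation. The titles give LPS as the stimulus, whereas the growth protocol given for all samples lists LPS together with IL4, so the presence of IL4 is not settled by the labels. The number of animals is not stated, and p-values measure only spread between libraries. In limma the spread of a feature is partly borrowed from the other features tested with it. A feature can therefore pass although its own libraries overlap between the groups.

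The files hold no coordinates, and positions are kb from the first bin. The bin of each probe is empty in its own libraries, which placed hs4 at 31 kb, IgG2a at 85 kb, IgG1 at 142 kb, IgG3 at 169 kb and Emu at 229 kb. That the IgG3 bin is empty in all 6 libraries follows from this rule and is no separate check. The genes run in the same order in the RefSeq table of GRCm38.p6, from Igha through Ighg2b, Ighg1 and Ighg3 to Ighm. That table has an Ighg2c gene and no Ighg2a gene. Each deposited matrix is scaled to a total of 300000, and the whole contacts inferred behind it numbered 20871, 16777 and 13187 at day 0 and 17615, 22377 and 16842 at day 3. Between 1315 and 2352 of these pairs were filled in a library. Every value below is a share of its library, so that a higher share in 1 place lowers the shares elsewhere.

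At day 3 a larger share of the contacts of IgG3 lay around hs4. The 2 blocks of 10 kb before it, from 0 to 20 kb, had lower means at day 3, with overlapping libraries. Together they held 2.19% ± 0.679 of contact ends at day 0 and 1.78% ± 0.335 at day 3. By voom on the inferred contacts their log2 differences were instead positive, at 0.33 and 0.56. The inferred contacts there rest partly on single bins of single libraries. The bin at 5 kb had 228 in day 3 replicate 1 and 4 to 26 in the other libraries. The bin at 15 kb had 124 in day 3 replicate 2 and 3 to 9 in the others. Their deposited shares in those libraries, 0.112% and 0.118%, lay within the range of the others. Whether this made the sign by voom was not tested. Of 24 blocks of 10 kb, 1 changed past the test, and it was the block from 20 to 30 kb, beside and within the hs4 site. It held 3.01%, 2.36% and 2.73% of contact ends in the day 0 libraries and 4.10%, 4.10% and 3.96% in the day 3 libraries. All day 3 libraries lay above all day 0 libraries. The mean rose from 2.70% ± 0.326 to 4.05% ± 0.0787 (SD, n = 3 each). On the scale of log2(value + 50) the difference was 0.59 (SE 0.14) with an adjusted p of 0.0410 in limma over the 24 blocks. The called share is 4.17% of the blocks. An unadjusted p under 0.05 was found in 3 blocks (12.5%), and the libraries of the groups did not overlap in 4 (16.7%). The size of the difference ranged from 0.50 to 0.67 when 1 library was left out, but the call did not survive most of these fits. It was lost without day 0 replicate 2 (0.50, limma adjusted p 0.0917) and replicate 3 (0.60, adjusted p 0.136). It was also lost without day 3 replicate 1 (0.58, adjusted p 0.117), replicate 2 (0.58, adjusted p 0.108) and replicate 3 (0.61, adjusted p 0.0963). The call was likewise lost without contacts within 10 kb of the viewpoint (0.63, limma adjusted p 0.0576) and without the diagonal, where both partners lie in 1 bin (0.60, adjusted p 0.131).

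**Figure D1:**
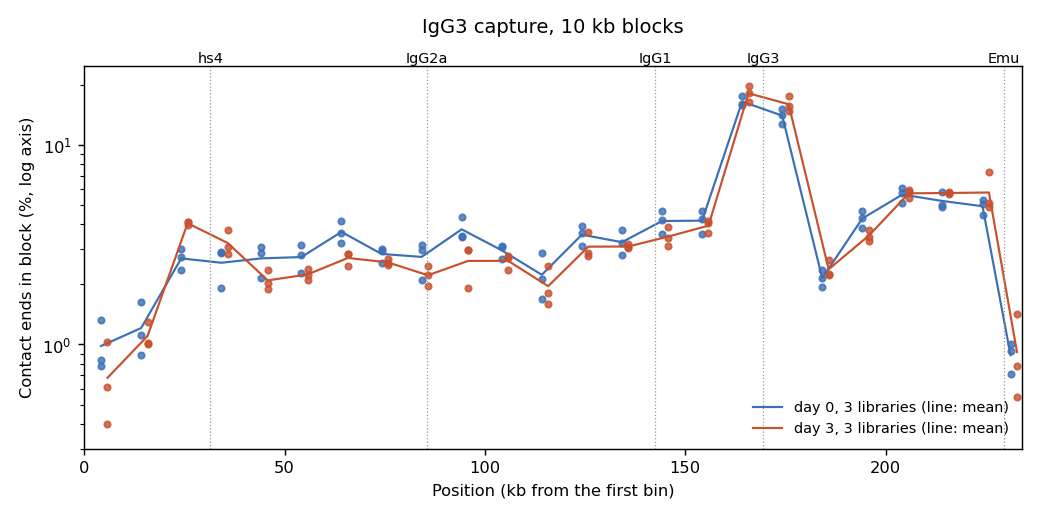
Percentage of contact ends in each 10 kb block (log axis) against position in kb from the first bin, for the 3 day 0 and 3 day 3 libraries (points) with the group means (lines) and the probe positions (dotted). The day 3 libraries sit at 3.96% to 4.10% in the block from 20 to 30 kb, above the day 0 libraries at 2.36% to 3.01%, while the 11 blocks from 40 to 150 kb have lower means at day 3.

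The window of 11 kb at hs4 itself gave a similar picture with less certainty. It held 4.37%, 3.81% and 2.88% of contact ends at day 0 and 5.23%, 5.39% and 6.08% at day 3, with no overlap. The mean was 3.68% ± 0.753 against 5.57% ± 0.447, a log2 difference of 0.61 with a 95% interval from 0.31 to 0.91. Its adjusted p was 0.0596 in limma over the 241 block pairs and elements tested together, just outside the threshold. Of 19 other settings 10 called it, and the difference was positive in all 19, at 0.45 to 0.75. These settings reuse the same libraries. Of the 6 settings with 1 library left out, 1 called it. At the resolution of single bins, 0 of 218 tested bins (0%) passed in limma, with 18 (8.26%) at an unadjusted p under 0.05. The bin with the lowest p, picked for that p, was at 29 kb, in the hs4 window. It held 0.502%, 0.366% and 0.456% of ends at day 0 and 1.03%, 1.00% and 0.865% at day 3, without overlap, for a log2 difference of 1.12 and a limma adjusted p of 0.202.

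The pair values show where the other partner lay when IgG3 met hs4. Contacts with both partners inside the hs4 window made up 2.41%, 2.19% and 1.74% of contacts at day 0 and 3.96%, 3.43% and 3.66% at day 3. The groups did not overlap, the log2 difference was 0.81 (95% interval 0.39 to 1.22) and the limma adjusted p was 0.0684. Of 19 other settings 7 called it, but 0 of the 6 with 1 library left out. Contacts that joined IgG3, hs4 and Emu, both enhancers together with the constant gene, were rare. They made up 0.175%, 0.179% and 0.118% of contacts at day 0 and 0.418%, 0.655% and 0.683% at day 3, again without overlap. The means were 0.157% ± 0.0338 and 0.585% ± 0.145, from 39 and 152 inferred contacts in all. The log2 difference was 1.78 (95% interval 0.82 to 2.73) with a limma adjusted p of 0.0689. Of 19 other settings 6 called it, but 0 of the 6 with 1 library left out. Contacts of hs4 with the stretch between hs4 and IgG2a were at 0.970% ± 0.319 at day 0 and 0.807% ± 0.226 at day 3, and those of hs4 with the IgG1 window at 0.112% ± 0.0635 and 0.110% ± 0.0648, with overlapping libraries in both cases. Means were higher at day 3, again with overlap, for hs4 with the stretch between IgG3 and Emu, at 0.448% ± 0.268 and 0.841% ± 0.352, and for hs4 with the IgG3 window, at 0.516% ± 0.257 and 0.711% ± 0.217.

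**Figure D2:**
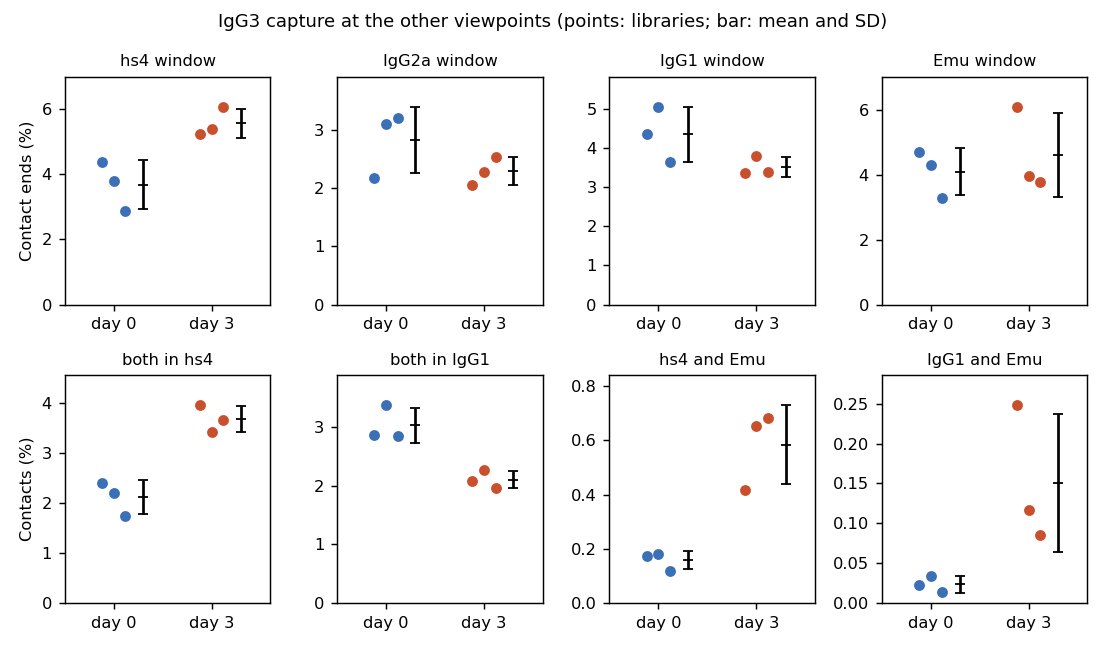
Share of contact ends in each other viewpoint's window (upper panels) and share of contacts with both partners in the named windows (lower panels), per library at day 0 and day 3, with mean and SD beside the points. All axes start at 0. The groups do not overlap for the hs4 window, and overlap for the IgG2a, IgG1 and Emu windows. The lower panels show only the pairs of windows whose groups do not overlap. The remaining pairs of windows overlap and are not drawn. Over all 241 block pairs and elements, the groups did not overlap in 13.3%.

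At Emu, the enhancer beside Ighm, the share of contact ends was 4.70%, 4.32% and 3.29% at day 0 and 6.11%, 3.98% and 3.78% at day 3. The groups overlapped, and the highest value belonged to day 3 replicate 1. The log2 difference was 0.15 with a 95% interval from -0.21 to 0.52, and it was -0.06 without that library. In the same library 48.7% of the signal lay on the diagonal, against 40.9% to 44.9% in the other 5. Its part in the Emu value beyond this was not tested. Contacts that joined IgG3 with both IgG1 and Emu were at 0.0224%, 0.0338% and 0.0134% at day 0 and at 0.248%, 0.117% and 0.0851% at day 3, from 7 and 29 inferred contacts. The groups did not overlap, but the limma adjusted p was 0.337 for a log2 difference of 1.98 (95% interval 0.48 to 3.47).

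The windows at the other constant genes had lower means at day 3, without passing the test. The IgG1 window held 4.35%, 5.06% and 3.66% of ends at day 0 and 3.36%, 3.81% and 3.39% at day 3, with overlap, a log2 difference of -0.30 and a limma adjusted p of 0.497. Contacts with both partners inside it were at 2.86%, 3.38% and 2.86% and then at 2.09%, 2.27% and 1.97%. These last groups did not overlap, with a log2 difference of -0.52 (95% interval -0.94 to -0.10) and a limma adjusted p of 0.359. The IgG2a window held 2.18%, 3.10% and 3.20% at day 0 and 2.05%, 2.27% and 2.53% at day 3, with overlap and a log2 difference of -0.29 (95% interval -0.65 to 0.07). Of the other pairs of windows, hs4 with IgG2a, hs4 with IgG1, IgG2a with IgG1, and the pairs within IgG2a and within Emu overlapped between the groups and had limma adjusted p-values from 0.520 to 0.996. The pair of IgG2a and Emu, with 10 and 5 inferred contacts, fell below the minimum mean of 100.

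Between hs4 and the viewpoint, mean shares were lower at day 3 over a long stretch. All 11 blocks from 40 to 150 kb had a lower mean at day 3, with log2 differences from -0.54 to -0.06 and a median of -0.25, against a median of -0.12 over all 24 blocks. None of the 11 passed the test in limma. Together they held 33.5%, 36.4% and 34.1% of contact ends at day 0 and 27.2%, 29.9% and 29.1% at day 3. The limits of this stretch were set after the values were seen, and the sum is given with no test. The block from 60 to 70 kb went from 3.67% ± 0.451 to 2.72% ± 0.216 and that from 90 to 100 kb from 3.78% ± 0.518 to 2.62% ± 0.603, each without overlap and with a limma adjusted p of 0.149.

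The stretches bounded by the probe windows gave the same direction. The stretch between hs4 and IgG2a held 12.7%, 11.9% and 12.4% of contact ends at day 0 and 9.89%, 9.98% and 9.71% at day 3. The stretch between IgG2a and IgG1 held 14.4%, 16.5% and 15.0% and then 12.01%, 13.9% and 13.4%. In both stretches all day 3 libraries lay below all day 0 libraries, by means of 2.49 and 2.19 points. For each the exact two-sided permutation p was 0.1, the smallest that 3 against 3 libraries can give, and 0.5 after Benjamini-Hochberg adjustment over the 15 single values tested. Without contacts near the viewpoint, the libraries of the stretch between IgG2a and IgG1 overlapped, at 21.6% to 23.9% and 18.6% to 21.8% (exact permutation p 0.3). The stretch between IgG3 and Emu was at 23.4% ± 1.11 and 24.5% ± 2.27 (exact permutation p 0.6).

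Seen by sides, contacts with both partners on the hs4 side of the viewpoint made up 43.3%, 48.7% and 46.9% at day 0 and 39.2%, 41.6% and 40.3% at day 3. The groups did not overlap, and the exact permutation p was again 0.1. The difference of -5.95 points became -3.90 without contacts within 10 kb of the viewpoint, still without overlap. Contacts with both partners on the Emu side were at 21.2% ± 1.30 and 21.9% ± 4.15 (exact permutation p 0.9), and those with 1 partner on each side at 8.37% ± 0.974 and 8.83% ± 1.21 (exact permutation p 0.8). The shares with at least 1 partner inside the viewpoint's own window were 27.5%, 21.8% and 23.2% at day 0 and 26.8%, 28.6% and 31.3% at day 3, which overlap (exact permutation p 0.2). By the distance between the partners, the groups overlapped in all 5 classes over all contacts, with exact permutation p-values from 0.2 to 1. Without contacts near the viewpoint they stood apart in 2 of the classes. Pairs 10 to 49 kb apart were then at 13.7%, 13.6% and 12.7% at day 0 and at 8.30%, 9.74% and 10.3% at day 3, a difference of -3.90 points in place of -0.92. Pairs within 1 bin were at 43.6%, 44.9% and 45.7% and then at 52.5%, 45.8% and 45.8%, a difference of 3.34 points in place of 0.29. For both the exact permutation p was 0.1. Pairs 100 kb and more apart were at 6.95% ± 1.62 and 8.41% ± 1.34.

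**Figure D3:**
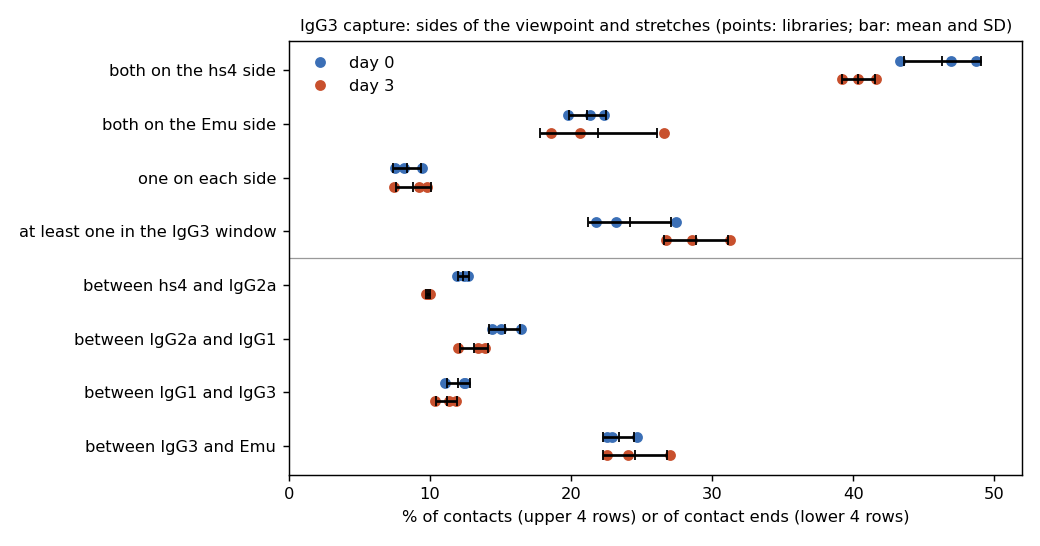
Shares of contacts by the side of the IgG3 viewpoint (upper 4 rows) and shares of contact ends in stretches between probe windows (lower 4 rows), per library at day 0 and day 3, with mean and SD. Day 3 lies below day 0 without overlap for both partners on the hs4 side (39.2% to 41.6% against 43.3% to 48.7%) and for the stretches from hs4 to IgG1.

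Over all pairs, the change was not resolved into single pairs of blocks. Of the 241 block pairs and elements tested, 0 (0%) passed in limma, with 22 (9.13%) at an unadjusted p under 0.05, 9 of them higher and 13 lower at day 3. The count by voom on the inferred contacts was 4 of 230 (1.74%), all higher: the hs4 window, the pairs within it, the pairs within the block from 170 to 180 kb, and the pairs of the blocks at 20 to 30 and 210 to 220 kb. The libraries of the groups did not overlap in 32 of the 241, or 13.3%. The block pair with the lowest p, chosen by that p, joined 90 to 100 with 190 to 200 kb. It was at 0.369%, 0.180% and 0.269% of contacts at day 0 and at 0%, 0.0368% and 0.0174% at day 3, from 30 and 7 inferred contacts, with no overlap and a limma adjusted p of 0.0596. The pair of 20 to 30 with 210 to 220 kb, which joins the hs4 end with the Emu side, was at 0.0241%, 0.0825% and 0.0523% and then at 0.269%, 0.219% and 0.247%, from 53 and 202 inferred contacts. It did not overlap either, and its limma adjusted p was 0.117.

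At 1 kb, 4 of 2166 bin pairs passed in limma (0.185%), all higher at day 3, while 60 (2.77%) had an unadjusted p under 0.05. The groups stood apart in 1 of the 4, against 4.62% of all bin pairs tested. It was the pairs within the bin at 205 kb, between IgG3 and Emu. That bin pair held 0.149%, 0.620% and 0.263% of contacts at day 0 and 0.763%, 0.801% and 0.737% at day 3, with a log2 difference of 1.39 and a limma adjusted p of 0.0118. The call did not hold without day 0 replicate 1 (0.92, limma adjusted p 0.718), nor without day 3 replicate 1 (1.39, adjusted p 0.633), replicate 2 (1.36, adjusted p 0.739) or replicate 3 (1.42, adjusted p 0.133). The other 3, at 97 with 98 kb, within 167 kb and at 227 with 228 kb, overlapped between the groups and rested on 6 to 30 inferred contacts at day 0. When each block pair was divided by the level that its 2 blocks give on their own, 0 of 181 pairs (0%) passed in limma, with 11 (6.08%) at an unadjusted p under 0.05 and a lowest adjusted p of 0.394. No pair, those that join the hs4 and Emu ends included, was thus shown to change beyond its single profiles.

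**Figure D4:**
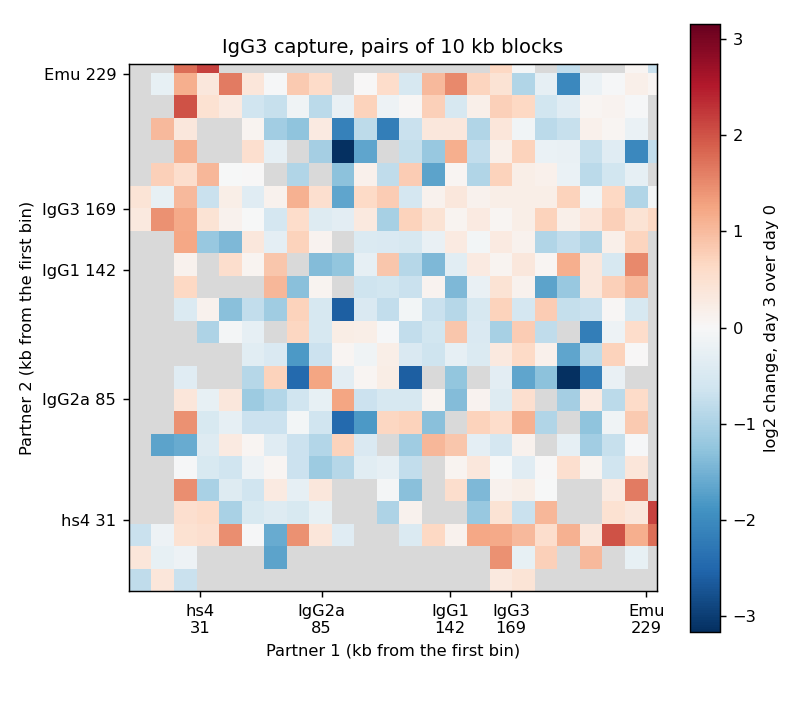
Log2 change from day 0 to day 3 in each pair of 10 kb blocks, both axes in kb from the first bin with the probes marked. Red pairs are higher at day 3, blue pairs lower, and grey pairs fell below the minimum mean of 100. Of the 241 block pairs and elements 0 passed at an adjusted p under 0.05.

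The nearest comparison in the series is that of the IgG1 viewpoint, 72 h against 0 h of activation, in cells of the same genotype by title under the same growth protocol. Its titles name no stimulus. It has 10 libraries, which give 2 samples at 0 h and 3 at 72 h once clones of 1 replicate number are averaged, and the labels name 1 of the samples at 0 h as replicates 1 and 3 together. Of 26 features far enough from both viewpoints or at the other sites, 11 (42.3%) passed at an adjusted p under 0.05 and 16 (61.5%) at an unadjusted one: they changed by a different amount from IgG3 than from IgG1. The viewpoint differs with its probe, and the parts of these cannot be told apart. Whether the stimulus also differed is not settled by the labels.

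Emu showed the greatest gap of the 3 sites compared. From IgG1, its window went from 2.43% and 2.19% of contact ends to 9.99%, 11.1% and 11.98%, a log2 change of 2.24, against 0.15 from IgG3. The difference, IgG3 minus IgG1, was -2.09 (SE 0.30) with an adjusted p of 0.000621 in limma over the 26 features. The blocks at that end followed, with differences of -0.83 at 210 to 220 kb, -1.82 at 220 to 230 kb and -2.41 from 230 kb to the end. The level at day 0 was not alike either, since Emu already held 4.10% ± 0.732 of the ends seen from IgG3, which lies 60 kb from it.

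At IgG2a, the window went from 4.74% and 4.27% to 2.11%, 2.01% and 1.83% as seen from IgG1, a log2 change of -1.18, against -0.29 from IgG3. The difference was 0.89 (SE 0.24, limma adjusted p 0.0115), and the blocks at 70 to 80, 80 to 90 and 100 to 110 kb differed the same way by 0.98, 0.89 and 1.06. At hs4 both viewpoints had higher mean shares after activation. The window went from 2.65% and 3.08% to 6.18%, 5.79% and 5.76% from IgG1, a log2 change of 1.05, against 0.61 from IgG3. This difference of -0.43 (SE 0.23) did not pass (limma adjusted p 0.128), which does not show that the changes were alike. The blocks at 20 to 30 and 30 to 40 kb and the pairs within the hs4 window differed by -0.39, -0.62 and -0.45. Each of these had a limma adjusted p of 0.0636. Pairs of hs4 with Emu and with IgG2a differed by -0.17 and 0.29, each with a limma adjusted p of 0.649. Between hs4 and IgG2a, the block at 40 to 50 kb had a log2 change of 0.67 from IgG1 and -0.36 from IgG3, a difference of -1.03 with a limma adjusted p of 0.00316.

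**Figure D5:**
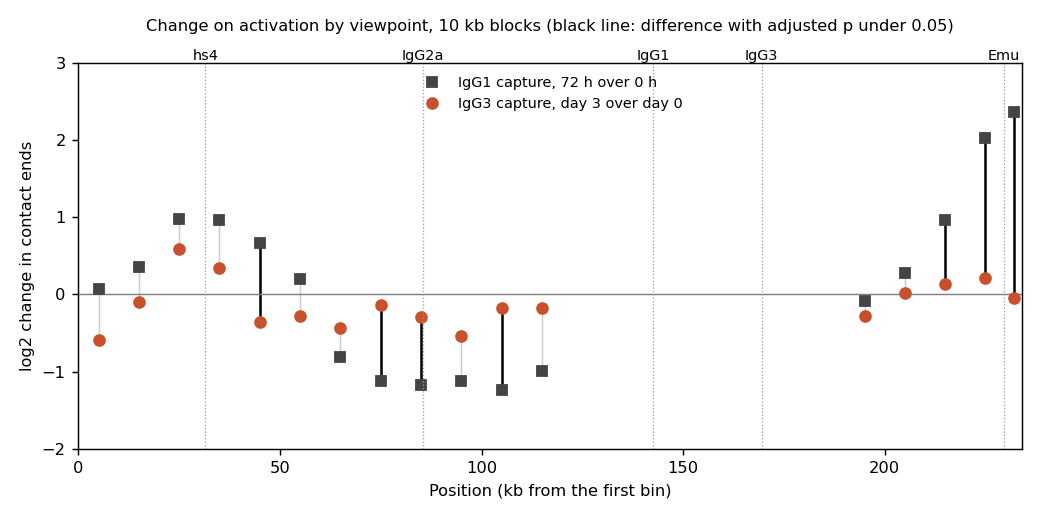
Log2 change in contact ends per 10 kb block on activation, seen from IgG3 (circles, day 3 over day 0) and from IgG1 (squares, 72 h over 0 h), against position in kb from the first bin. Black lines join blocks whose difference passed at an adjusted p under 0.05, as at 220 to 230 kb (0.21 against 2.03). Blocks within 20 kb of either viewpoint are left out.

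The IgG3 window itself, seen from the other probes of the activation series, held 6.46% ± 0.0885 of contact ends from IgG1 at 0 h and 6.85% ± 0.436 at 72 h. From Emu it held 3.00% ± 0.369 and 3.30% ± 0.417, and from hs4 2.82% ± 0.366 and 2.18% ± 0.318 (SD, n = 2 at 0 h and 3 at 72 h). From hs4 the lowest sample at 0 h was at 2.56% and the highest at 72 h at 2.47%, with a mean of 2.79% at 48 h. The IgG3 window seen from hs4 thus had a lower mean at 72 h. The hs4 window seen from IgG3 had a higher mean at day 3. They are shares of different totals. All these are given as levels, with no test.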

How the data were processed

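The labels' protocols give formaldehyde fixation, NlaIII digestion, ligation, and 2 rounds of hybridization to the probe. Per the submitters' processing notes, Bowtie2 and mouse build mm9 were used. Not given in the sources used here: which program called contacts, how duplicates were treated, and the aligner's version. Values are in 1 unit, as the authors deposited a signal in 1 upper-triangle matrix per library, scaled to a total of 300000. How each value was made is not stated. The values behave as whole contacts after division by integers fitted for each bin in each library, and contacts were inferred on that basis. All 6 libraries had the same integer in 139 of 234 bins. In the others it differed, as at the bin at 5 kb, where it was 15 in day 3 replicate 1 and 1 to 3 elsewhere. Inferred contacts in such bins are less certain. With a tolerance of 0.04, 99.9% to 100% of off-diagonal values, to which the integers were fitted, came out whole. Of the diagonal values, which the fit did not use, 95.5% to 98.9% did. Inferred contacts serve as depth and for voom only. They count ligation events whose independence is not known, so counting error is a lower limit.

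Signal was summed over 1 kb bins, 24 blocks of 10 kb (the last of 4 kb), their 300 pairs and windows of 11 kb at the probes (10 kb at Emu). Tests used limma 3.58.1 in R 4.3.3 on log2(value + 50), or log2(value + 10) for bin pairs, for features with a mean of at least 100, or 20. The 24 blocks had no filter. Benjamini-Hochberg adjustment ran at 0.05 over each set of features. Single values were tested by exact permutation. Pair enrichment used a quasi-independence fit over blocks at least 2 apart. The steps were also run on simulated libraries with known changes. Noise there was drawn for each bin pair on its own. Those runs cannot show how the steps handle differences between libraries over whole blocks, and no result here rests on them. The text names the blocks, all windows and pairs of windows, and called features whose groups do not overlap; others are marked as picked by their p. The comparison and its lists were chosen with earlier results of these data known. Alternatives were other pseudocounts, filters, scalings, block and window sizes, voom, a replicate block, and each library left out. No promoter or probe sequence was used here. The name of the genotype that all these libraries share is not reported here.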

Additional observations from a re-analysis of the deposited data

Results flagged for a closer look

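The change on activation differed between the IgG3 and IgG1 viewpoints at 11 of 26 features, by the limma test of the difference itself. The differences, IgG3 minus IgG1 in log2, were negative at the Emu end, at -1.82 for the block from 220 to 230 kb, -2.09 for the Emu window, -0.83 for the block from 210 to 220 kb, -2.39 for pairs within the Emu window and -2.41 for the last block, from 230 kb on. The block from 40 to 50 kb, next to hs4, had -1.03. They were positive around IgG2a, at 0.98 for the block from 70 to 80 kb, 1.06 for that from 100 to 110 kb, 0.89 for the IgG2a window, 0.89 for the block from 80 to 90 kb and 0.77 for pairs within the IgG2a window. All 11 passed in each of 10 other settings, those with 1 IgG3 library left out included. The windows and the blocks that hold them share signal and are not separate evidence. The viewpoint and its probe differ together, and their parts cannot be told apart. Only the IgG3 titles name a stimulus, so whether it differed is not settled by the labels. Groups of 3 libraries are too small for a check of single outlying libraries.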

How the results depend on the processing

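The count of called 10 kb blocks was 1, and it was 0 without contacts near the viewpoint, without the diagonal or with blocks of 5 kb, and 3 (1 higher, 2 lower) with blocks of 20 kb. The count for block pairs and elements was 0. It was 3 with a minimum mean 3 times as high, 4 by median of ratios (which moved the median log2 of these features from -0.05 to 0.06), 4 without contacts near the viewpoint, 7 with blocks of 5 kb, 4 with blocks of 20 kb, 4 by voom, and 2 with windows of 7 or of 15 kb. The 4 called bin pairs became 0 with the higher minimum. The count for pair enrichment was 0 and became 1 with blocks of 5 kb. Leaving out 1 library gave 0 to 1 blocks, 0 to 1 block pairs and elements, 0 to 3 bin pairs, 0 to 1 enrichment pairs and 11 to 14 features that differed from IgG1. The called features were not always the same. Without day 3 replicate 2, the 1 called block was lower at day 3 and was not that from 20 to 30 kb. Among block pairs and elements, 1 was called higher without day 3 replicate 1 and 1 lower without day 3 replicate 3. The stretch between hs4 and IgG2a, with a difference of -2.49 points, had -3.05 points without contacts near the viewpoint and -2.86 without the diagonal, and that between IgG2a and IgG1 had -3.42 in place of -2.19 without the diagonal and -2.12, with overlapping libraries, without contacts near the viewpoint. The Emu window's log2 difference turned to -0.043 by voom and ranged from -0.065 (without day 3 replicate 1) to 0.28 with 1 library left out. Pairs within Emu turned to -0.015 by voom and ranged from -0.12 (without day 3 replicate 1) to 0.36, with -0.0082 without day 0 replicate 3. The cause was not tested in any of these. The labels give both groups the replicate numbers 1 to 3, and whether the numbers pair the libraries is not stated. Deviations of same-numbered libraries correlated at 0.003, 0.116 and 0.014 over 228 block pairs. With 3 libraries in a group, such low correlations cannot settle whether they were paired. With the replicate block, 3 blocks (1 higher, 2 lower), 5 block pairs and elements (3 higher, 2 lower), 4 bin pairs and 0 enrichment pairs were called. The 2 lower blocks were those from 0 to 10 kb (-0.59, limma adjusted p 0.0143) and from 90 to 100 kb (-0.54, limma adjusted p 0.0195). Rare pairs are limited by depth, with 39 inferred day 0 contacts behind the joint hs4 and Emu value.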
